A study of Mus musculus with 53 samples.

Results

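The genes described here encode receptors for extracellular nucleotides, adenosine and lysophospholipids, together with 1 ectonucleotidase. They were picked by gene symbol, with earlier results of these data known. Shares of called members set beside those of all loci therefore describe a chosen set. All 10 genes (Lpar6, S1pr1, Adora2b, Entpd1, P2ry2, P2ry6, P2ry13, P2ry14, P2rx4 and P2rx7) were found once each among the 23847 loci of the expression tables. Each reached 1 FPKM (a fragment count divided by transcript length in kilobases and by the size of the library) in at least 1 sample, so all 10 were among the 11146 loci tested. P2ry13 was under 1 FPKM in 7 of the 35 WT samples, and the other 9 genes were at 1 FPKM or more in all 53 samples.

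RNA-seq was carried out on bone marrow-derived macrophages (BMDMs) from C57BL/6 mice of 8 to 12 weeks, either WT or carrying a full-body Stat6-/- knockout. STAT6 is the transcription factor through which IL-4, a type 2 cytokine, drives alternative macrophage polarization, and the aim of the series was to find the genes that IL-4 turns up or down through it. Marrow cells of both genotypes were differentiated for 6 days in medium with L929 cell supernatant, a source of M-CSF. IL-4 was then given at 20 ng/ml for 1, 3, 6 or 24 h, each time with a control kept in culture for as long without it, and cells at 0 h served as a further control. WT groups held 4 samples, except for 3 with 24 h of IL-4, whose replicate 1 is not analysed here, and Stat6-/- groups held 2. WT samples were described as individual animals, whereas nothing stated how the Stat6-/- samples were obtained, so that their spread may be partly technical.

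ATP, ADP and UTP leave stressed or activated cells and act on P2X channels, which ATP opens, and on P2Y receptors, which couple to G proteins. Ectonucleotidases on the cell surface then break the nucleotides down, and the adenosine formed at the end of this chain acts on adenosine receptors. Lysophosphatidic acid and sphingosine 1-phosphate are signalling lipids with G protein-coupled receptors of their own, which steer cell shape, migration and survival. In macrophages these systems are known for the sensing of dying cells, for inflammasome activation through P2X7 and for chemotaxis.

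The FPKM sum ranged from 385889 to 464915 over the samples, and 10017 to 10380 loci per sample reached 1 FPKM. The tables hold no read counts, and the absolute depth is unknown. Relative depth, recovered from low loci, ranged from 0.721 to 1.56 times the median sample. Stat6 was at 58.7 to 90.6 FPKM in WT samples and at 14.3 to 24.0 FPKM in Stat6-/- samples, and Arg1 and Retnla, a pair of IL-4 target genes, rose by 5.93 and 11.99 in WT at 24 h (log2(FPKM + 1) scale, adjusted p = 2.0e-26 and 2.3e-28). All 7 macrophage markers were detected, and the B cell and fibroblast markers stayed under 1 FPKM in every sample. Lyz2, the most abundant of the 7, had a listed value of 0 in 7 WT libraries of 0 to 6 h and of 4018 FPKM or more in every other one, while 0 of the 10 genes were listed at 0 in any sample. The sum of the macrophage markers was therefore read without Lyz2. With Lyz2, which no 24 h library listed at 0, the WT sum at 24 h was 6644 to 8048 FPKM with IL-4. In the controls it was 21764 to 27824 FPKM. In WT at 24 h several marker sums moved with IL-4. The sum of the other 6 macrophage markers was 2604 to 2626 FPKM with IL-4 against 3274 to 3773 FPKM in the controls, the neutrophil sum, over 4 of 5 markers, was 91.9 to 127 against 204 to 278 FPKM, and the T cell sum, in which Cd4 alone passed 1 FPKM, was 0.738 to 1.37 against 8.03 to 15.5 FPKM. The endothelium sum, in which Kdr alone passed 1 FPKM, was also lower with IL-4 in WT at 3, 6 and 24 h. It was 0.422 to 0.763 against 1.49 to 2.63 FPKM at 3 h and 0.162 to 0.490 against 0.718 to 2.08 FPKM at 6 h. At 24 h it was 0.159 to 0.260 against 0.774 to 0.924 FPKM. The T cell sum was lower at 6 h too, at 2.07 to 3.45 against 4.56 to 8.06 FPKM. The part of these shifts in the results below was not tested. In bulk RNA fewer cells of a type cannot be told apart from less RNA per cell.

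Differences below are IL-4 minus time-matched control on the log2(FPKM + 1) scale, which understates changes of low genes, with their standard error (SE) from one limma fit over all 53 samples. A gene was called at a Benjamini-Hochberg adjusted p under 0.05 over all loci tested and a difference of at least 1 in size. In WT the called members were Lpar6, lower at all 4 times, S1pr1, lower from 3 h, Adora2b, higher at 6 and 24 h, and P2ry13, lower at 24 h. The other 6 genes were called at no time. At 1, 3, 6 and 24 h, 1, 2, 3 and 4 of the 10 genes were called, beside 1.49%, 3.88%, 5.54% and 8.5% of all loci tested. Called lower were 1, 2, 2 and 3 members, beside 0.395%, 1.27%, 2.36% and 4.58% of loci, and called higher were 0, 0, 1 and 1, beside 1.09%, 2.61%, 3.18% and 3.91%. By adjusted p alone, 2, 6, 6 and 7 members passed, beside 9.39%, 28.9%, 41.2% and 55% of loci. The median difference of the 10 genes was -0.12, -0.33, -0.28 and -0.45 at these times, and over all loci tested it lay between -0.07 and 0.01.

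**Figure D1:**
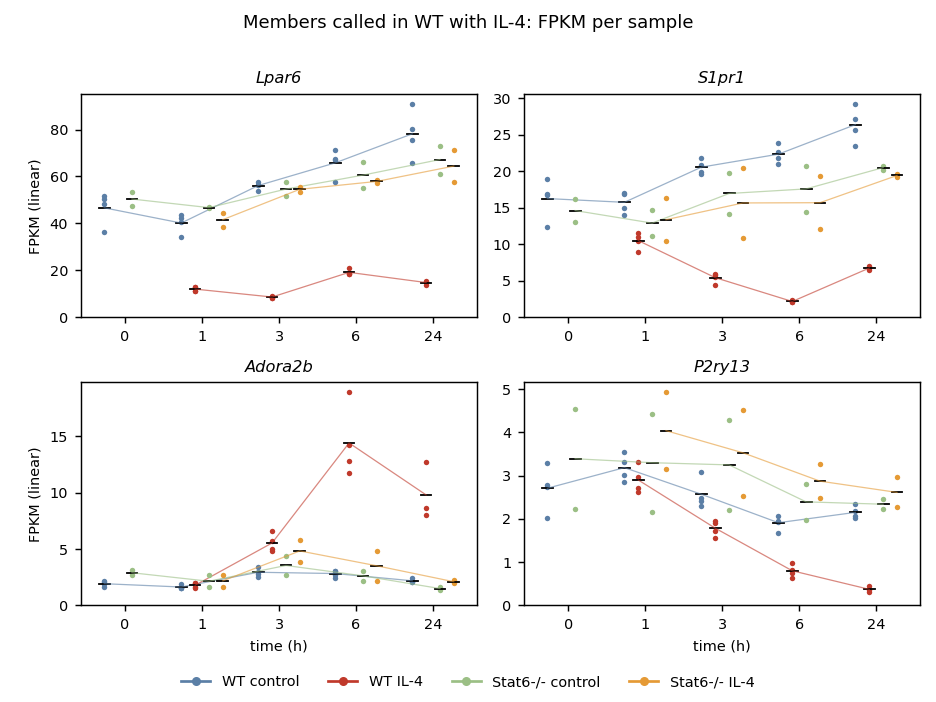
FPKM (linear axis) of Lpar6, S1pr1, Adora2b and P2ry13 in every sample, with the hours of IL-4 or control culture spaced evenly on the horizontal axis. Points are samples, short bars are group means joined by lines, and colours mark genotype and treatment. WT samples with IL-4 lie below their controls for Lpar6 at all 4 times (8.32 to 20.9 against 34.2 to 90.9 FPKM) and above them for Adora2b from 3 h, while Stat6-/- samples with IL-4 lie among or near their controls.

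Lpar6 encodes a receptor for lysophosphatidic acid. It was the only member called at 1 h, when it stood at 12.9, 12.8, 11.3 and 11.1 FPKM in the WT samples with IL-4 and at 42.1, 34.2, 43.6 and 40.7 FPKM in their controls. At 3 h the values were 9.05, 8.32, 8.84 and 8.39 FPKM with IL-4 and 56.3, 56.6, 57.8 and 53.9 FPKM without. No IL-4 sample reached the lowest control at either time, and the IL-4 mean was 29.9% of the control mean at 1 h and 15.4% at 3 h. At 6 h, IL-4 samples had 20.9, 18.8, 18.3 and 18.6 FPKM, against 71.1, 66.8, 67.5 and 57.7 FPKM in the controls. At 24 h, IL-4 samples had 13.7, 15.2 and 15.6 FPKM, against 75.5, 90.9, 80.4 and 65.8 FPKM in the controls. The groups stayed apart, with IL-4 means at 29.1% and 19.0% of the control means. Lpar6 fell by 1.66 (SE 0.09), 2.57 (SE 0.09), 1.73 (SE 0.09) and 2.32 (SE 0.10) over the 4 times in turn, with adjusted p = 3.6e-17, 1.7e-23, 3.0e-18 and 7.2e-21. Counted from the most negative difference, Lpar6 stood at place 20, 4, 54 and 47 among the 11146 loci.

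The size of the Lpar6 response differed between the 4 times (range 0.91, adjusted p = 2.9e-07), and the decrease at 24 h was larger than at 6 h (difference -0.59, SE 0.14, adjusted p = 0.0011). Both sides of the comparison moved. In WT controls Lpar6 had a mean of 46.6 ± 6.96 FPKM (SD, n = 4) at 0 h and 78.2 ± 10.4 FPKM (SD, n = 4) at 24 h, a rise of 0.74 (SE 0.09, adjusted p = 6.4e-07). With IL-4 the mean was lowest at 3 h, at 8.65 ± 0.35 FPKM (SD, n = 4).

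Lpar6 lies on the plus strand at chr14:73237891-73240358 (mm10), a single coding exon, inside intron 17 of Rb1, which is transcribed from the opposite strand. The libraries kept no strand, and 315 of its 2415 stretches of 50 bases (13%) were shared with a Rb1 transcript of the GENCODE annotation, so a part of its fragments could not be told from those of Rb1. Rb1, at 19.4 FPKM or less in every sample, differed by 0.30, -0.37, -0.17 and -0.51 at 1, 3, 6 and 24 h in WT (adjusted p = 0.15, 0.020, 0.29 and 0.0017). These differences were smaller than those of Lpar6 at each time, and at 1 h the sign was the opposite one.

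The 250 bases before the annotated start are shown for Lpar6, the only member called at 1 h, and for Adora2b, the only member called higher. These windows were picked because they differ in base composition (RefSeq, GRCm38.p6, plus strand, 5′ to 3′, with no letters in capitals because no motif was found). The Lpar6 window is chr14:73237641-73237890 and the Adora2b window is chr11:62248734-62248983.
Lpar6: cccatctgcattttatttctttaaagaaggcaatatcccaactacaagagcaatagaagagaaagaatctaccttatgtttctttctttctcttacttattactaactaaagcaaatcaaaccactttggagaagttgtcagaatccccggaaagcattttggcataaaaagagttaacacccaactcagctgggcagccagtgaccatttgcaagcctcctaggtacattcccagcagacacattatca
Adora2b: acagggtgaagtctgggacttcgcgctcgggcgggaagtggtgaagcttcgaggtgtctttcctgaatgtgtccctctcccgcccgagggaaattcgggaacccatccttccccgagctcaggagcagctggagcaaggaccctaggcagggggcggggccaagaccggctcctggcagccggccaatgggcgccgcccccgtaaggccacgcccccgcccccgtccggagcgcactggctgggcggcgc
The Lpar6 window held 39.2% G and C and 1 CpG, both below the 25th percentile of all 32851 promoter windows (45.2%, 2 CpG). The Adora2b window held 69.6% G and C and 22 CpG, both above their 75th percentile (61.2%, 16 CpG). The windows of P2ry2, a gene called at no time, held 65.2% and 71.2% G and C with 21 and 26 CpG. Whether base composition bears on the IL-4 response was not tested. The letters TTC and GAA with any 4 or any 3 bases between them, the form of STAT6 and other STAT sites, which reads the same on both strands, were searched in the 14 windows of the 8 members with an entry. Neither form was in any of them (0 of 14), while 5.85% and 7.02% of all windows of the same length held it. P2ry6 and S1pr1 had no entry. The search says only that these letters are not in these 250 bases.

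S1pr1 encodes a Gi-coupled receptor for sphingosine 1-phosphate, known for guiding cells along gradients of this lipid. At 1 h its WT values were 9.0, 10.5, 10.9 and 11.6 FPKM with IL-4 and 13.9, 16.9, 17.1 and 15 FPKM in the controls. At 3 h they were 5.53, 5.75, 5.95 and 4.48 FPKM with IL-4 and 19.9, 20.9, 21.8 and 19.7 FPKM without. The groups did not overlap at either time, and the gap widened from 1 h to 3 h. At 6 h, IL-4 samples had 2.04, 2.27, 2.04 and 2.32 FPKM, and controls had 21.0, 23.8, 22.7 and 21.8 FPKM. At 24 h, IL-4 samples had 7.02, 6.75 and 6.45 FPKM, and controls had 25.7, 29.2, 27.1 and 23.5 FPKM. Every IL-4 sample was below every control again, and the IL-4 values at 24 h lay above those at 6 h. S1pr1 fell by 0.54 (SE 0.14), 1.75 (SE 0.14), 2.88 (SE 0.14) and 1.82 (SE 0.16) over the 4 times in turn (adjusted p = 0.0091, 8.7e-13, 2.6e-19 and 2.6e-12), so that at 1 h it passed the p threshold but not the fold threshold.

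The S1pr1 response differed most between times among the 10 genes, with a range of 2.34 over the 4 responses (adjusted p = 1.1e-10). From 1 h to 6 h the response changed by -2.34 (SE 0.20, adjusted p = 1.4e-11), and from 6 h to 24 h by 1.06 (SE 0.21, adjusted p = 1.8e-04). In WT controls S1pr1 rose by 0.68 from 0 h to 24 h (SE 0.14, adjusted p = 0.0010). The gene lies at chr3:115710433-115715055 (mm10, minus strand, 2 exons).

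Adora2b encodes the A2B adenosine receptor, which couples to Gs and has a low affinity for adenosine. It was the only member called higher with IL-4. At 1 h WT values were 1.99, 2.0, 1.54 and 1.62 FPKM with IL-4 and 1.59, 1.87, 1.57 and 1.5 FPKM in the controls. At 3 h they were 6.65, 5.73, 4.97 and 4.83 FPKM with IL-4 and 2.80, 3.45, 3.00 and 2.52 FPKM without. The groups overlapped at 1 h and were apart at 3 h. At 6 h, IL-4 samples had 14.2, 18.9, 12.8 and 11.8 FPKM, and controls had 2.47, 3.06, 3.08 and 2.71 FPKM. At 24 h, IL-4 samples had 12.7, 8.66 and 8.06 FPKM, and controls had 2.08, 2.12, 2.39 and 2.16 FPKM. All IL-4 samples were above all controls at both times, and replicate 2 was the highest IL-4 sample at each. The differences at 1, 3, 6 and 24 h were 0.08, 0.73, 1.99 and 1.74 (SE 0.15, 0.15, 0.15 and 0.17, adjusted p = 0.86, 2.7e-04, 1.1e-13 and 3.9e-11), so that the 3 h rise passed the p threshold only. The response differed between times by up to 1.91 (adjusted p = 4.1e-09), and that at 24 h was not shown to differ from that at 6 h (-0.25, SE 0.23, adjusted p = 0.44). Adora2b lies at chr11:62248984-62266452 (mm10, plus strand, 2 exons).

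Entpd1 encodes CD39, the ectonucleotidase that turns ATP and ADP into AMP. At 24 h its WT values were 29.3, 31.6 and 36.0 FPKM with IL-4 and 58.8, 57.7, 63.6 and 73.8 FPKM in the controls. Without IL-4 at 0 h they were 24.8, 28.8, 31.1 and 34.3 FPKM. The IL-4 samples at 24 h thus lay within or just above the range of the 0 h controls, and the 24 h controls lay above both. Entpd1 was the only member called as changing over the 5 WT control times (range 1.07, adjusted p = 0.0037, beside 1.22% of loci called), with a rise of 1.07 from 0 h to 24 h (SE 0.24, adjusted p = 0.0015). This call rested on all 4 WT replicates, since without any one of them the adjusted p was 0.065 to 0.083. The IL-4 difference at 24 h was -0.95 (SE 0.26, adjusted p = 0.0019), under the fold threshold. At 3 and 6 h every IL-4 sample was below every control (22.8 to 24.1 against 32.4 to 37.9 FPKM, and 22.4 to 27.8 against 31.7 to 41.2 FPKM), with differences of -0.53 and -0.56 (SE 0.24 each, adjusted p = 0.095 and 0.054). Entpd1 lies at chr19:40659794-40741602 (mm10, plus strand).

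The SE of Entpd1 was the largest of the 10 genes in these comparisons. The Stat6-/- samples, which share the fit, were spread widely for this gene. Replicate 1 of Stat6-/- was above replicate 2 in all 9 groups, at 32.0 to 75.3 against 20.0 to 46.4 FPKM. With only the WT IL-4 and control samples of the same time in the limma fit, the adjusted p of Entpd1 at 3, 6 and 24 h was 7.3e-05, 0.0014 and 1.4e-04. Its differences stayed as given above. Such a fit leaves out the other WT groups as well as the Stat6-/- groups, and the source of the change was not tested.

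P2ry13 encodes a Gi-coupled receptor for ADP. Its WT values at 24 h were 0.363, 0.308 and 0.446 FPKM with IL-4 and 2.17, 2.07, 2.01 and 2.35 FPKM in the controls. At 6 h they were 0.824, 0.991, 0.754 and 0.637 FPKM with IL-4 and 2.07, 1.96, 1.68 and 1.94 FPKM without. At 3 h they were 1.73, 1.90, 1.56 and 1.95 FPKM with IL-4 and 2.48, 2.40, 2.30 and 3.10 FPKM without. At each of these times the IL-4 samples were all below the controls, whereas at 1 h they overlapped. The IL-4 mean was 91.0%, 69.5%, 41.9% and 17.3% of the control mean at 1, 3, 6 and 24 h, and on the log2(FPKM + 1) scale the differences were -0.10, -0.35, -0.69 and -1.20 (SE 0.15, 0.15, 0.15 and 0.17, adjusted p = 0.80, 0.082, 3.1e-04 and 1.3e-07). The 24 h response was larger than the 1 h response by 1.10 in size (difference -1.10, SE 0.23, adjusted p = 1.5e-04). With only the WT IL-4 and control samples of 3 h in the limma fit, the adjusted p of P2ry13 at 3 h was 0.0065. Because the gene is low, the pseudocount bears on its size, and with 0.1 in place of 1 the 6 h difference was -1.17 and called.

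P2ry14 encodes a receptor for UDP-glucose and lies near P2ry13 on the minus strand of chromosome 3. P2ry14 (chr3:59114625-59130624) and P2ry13 (chr3:59207894-59210882, mm10) are 77269 bases apart and both sit inside 1 intron of Med12l, a gene on the opposite strand that reached at most 0.306 FPKM. At 24 h P2ry14 had 11.5, 12.2 and 12.0 FPKM with IL-4 and 19.0, 14.9, 17.6 and 14.6 FPKM in the WT controls. The groups did not overlap, but the difference of -0.44 (SE 0.24) had an adjusted p of 0.12 in the limma fit over all samples. With only the WT IL-4 and control samples of 24 h in the fit the adjusted p was 0.0042. Which side of the p threshold P2ry14 fell on thus depended on the samples in the fit. At 1, 3 and 6 h the groups overlapped, with differences of 0.12, 0.16 and 0.11 (SE 0.22 each, adjusted p of at least 0.67).

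P2ry2, a receptor for ATP and UTP, moved in both directions. At 3 h its WT values were 2.74, 3.22, 3.06 and 3.09 FPKM with IL-4 and 4.96, 5.64, 4.75 and 3.69 FPKM in the controls. At 6 h they were 2.54, 3.09, 2.76 and 2.75 FPKM with IL-4 and 4.27, 5.16, 4.35 and 4.20 FPKM without. At 24 h they were 7.08, 7.09 and 6.98 FPKM with IL-4 and 4.63, 4.35, 4.30 and 5.64 FPKM without. At 1 h they were 5.96 to 6.39 FPKM with IL-4 and 4.84 to 5.90 FPKM without. The IL-4 samples were below all controls at 3 and 6 h and above all controls at 1 and 24 h. The differences at 3, 6 and 24 h were -0.51, -0.54 and 0.50 (SE 0.13, 0.13 and 0.14, adjusted p = 0.0025, 9.9e-04 and 0.0033), each under the fold threshold, after 0.18 (SE 0.13, adjusted p = 0.49) at 1 h. The change of the response from 6 h to 24 h was itself called, at 1.03 (SE 0.19, adjusted p = 6.8e-05), beside 6.06% of loci.

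P2ry6, a receptor for UDP, is the neighbour of P2ry2 on the minus strand of chromosome 7 (chr7:100937634-100964366 and chr7:100996572-101011991, mm10, 32205 bases apart). At 3 h P2ry6 had 174.0, 132.0, 163.2 and 172.0 FPKM with IL-4 and 111.6, 109.3, 110.7 and 115.2 FPKM in the WT controls. At 6 h it had 163.0, 157.1, 165.9 and 177.6 FPKM with IL-4 and 113.1, 116.5, 120.9 and 122.8 FPKM without. Its IL-4 samples were above all controls at both times, when those of P2ry2 were below theirs. The difference was 0.51 (SE 0.12, adjusted p = 6.2e-04) at 3 h and 0.48 (SE 0.12, adjusted p = 8.0e-04) at 6 h, under the fold threshold, and -0.22 and -0.07 at 1 and 24 h (adjusted p = 0.30 and 0.67). The P2ry6 response differed between times by 0.73 (adjusted p = 2.5e-04).

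The P2X channel genes are neighbours too, on the plus strand of chromosome 5 (P2rx7 at chr5:122643911-122691432 and P2rx4 at chr5:122707557-122729042, mm10, 16124 bases apart). P2rx7 encodes the channel whose opening by high ATP activates the NLRP3 inflammasome. At 24 h it had 18.8, 16 and 18.7 FPKM with IL-4 and 25.5, 26.3, 24.1 and 24.3 FPKM in the WT controls. These groups were apart, with a difference of -0.47 (SE 0.11, adjusted p = 7.2e-04), and at 3 h it was -0.30 (SE 0.11, adjusted p = 0.031). At 1 and 6 h P2rx7 differed by -0.13 and -0.02 (adjusted p = 0.55 and 0.91). P2rx4, a channel found largely on lysosomes, was at 111 to 189 FPKM over the 35 WT samples. Its IL-4 and control samples overlapped at all 4 times, with differences of -0.15, -0.18, 0.06 and -0.06 (SE 0.12 to 0.13, adjusted p of at least 0.30).

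**Figure D2:**
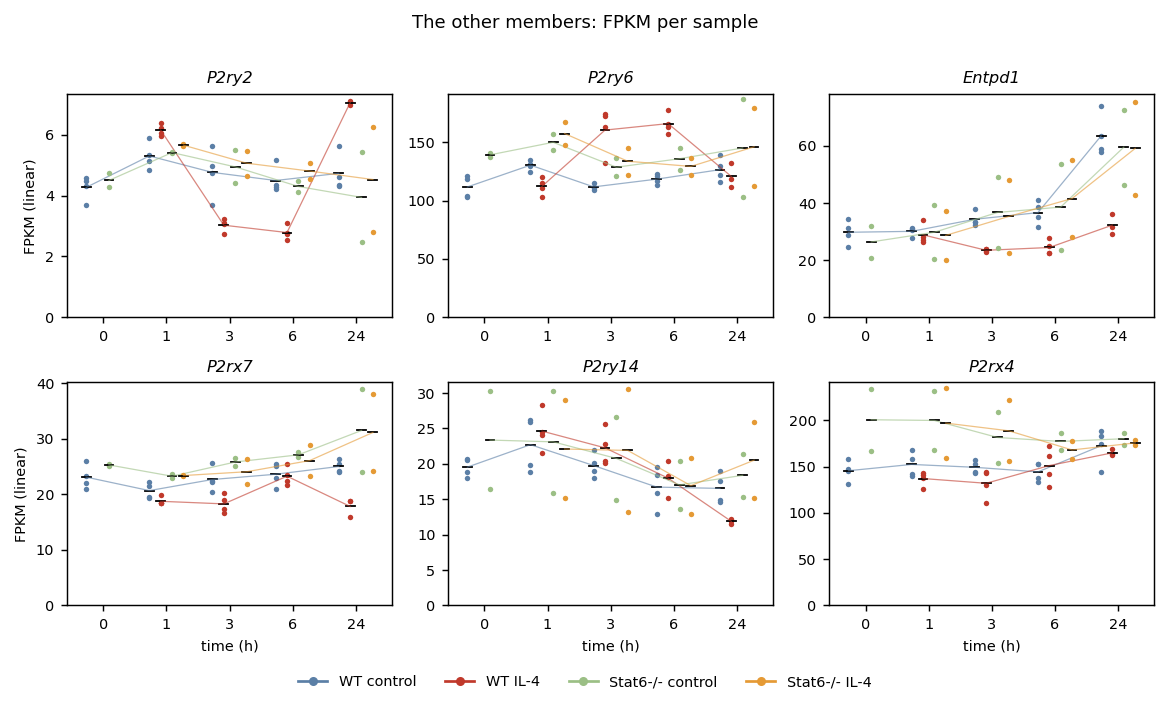
FPKM (linear axis) of P2ry2, P2ry6, Entpd1, P2rx7, P2ry14 and P2rx4 in every sample, with hours spaced evenly on the horizontal axis. Points are samples and short bars are group means. WT IL-4 samples of P2ry2 lie below their controls at 3 and 6 h and above them at 1 and 24 h. The controls of Entpd1 rise from 24.8 to 34.3 FPKM at 0 h to 57.7 to 73.8 FPKM at 24 h.

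Sets of samples that did not overlap were counted over the 10 genes as well. In WT the IL-4 samples were all below the controls for 3, 6, 5 and 6 members at 1, 3, 6 and 24 h, beside 7.81%, 18.1%, 22.3% and 37.1% of loci. They were all above the controls for 1, 2, 2 and 2 members, beside 8.27%, 20.8%, 23.8% and 27.4% of loci.

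Levels per transcript length can be compared between genes. In WT at 0 h the order was P2rx4 with a mean of 146 ± 10.9 FPKM (SD, n = 4), P2ry6 with 112 ± 9.43, Lpar6 with 46.6 ± 6.96, Entpd1 with 29.8 ± 4.02, P2rx7 with 23.1 ± 2.10, P2ry14 with 19.5 ± 1.37, S1pr1 with 16.2 ± 2.76, P2ry2 with 4.27 ± 0.40, P2ry13 with 2.71 ± 0.53 and Adora2b with 1.93 ± 0.25. The samples of Entpd1 and P2rx7 overlapped, as did those of P2ry14 and S1pr1 and those of P2ry13 and Adora2b, so the ranges of these neighbours were not apart. Their order within each sample was not compared at 0 h. At 24 h Lpar6 was in place 3 without IL-4 and in place 5 with IL-4, S1pr1 went from place 5 to place 9, and Adora2b from place 9 to place 7, while P2rx4 and P2ry6 held the first places in both. In the 24 h controls Lpar6 overlapped with Entpd1, S1pr1 with P2rx7 and Adora2b with P2ry13. With 24 h of IL-4, the range of P2ry14 overlapped with that of Adora2b, and the range of P2ry2 with that of S1pr1. By the values given above, P2ry2 was nonetheless above S1pr1 in every one of these samples. The order of P2ry14 and Adora2b differed between samples. With IL-4 at 3 and 6 h P2ry6 had a higher mean than P2rx4 (160 against 132 FPKM, and 166 against 151 FPKM), with samples that overlapped.

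Whether the responses needed STAT6 was read from the same comparison in Stat6-/- samples and from the difference between genotypes. In Stat6-/- cells 0 of the 10 genes were called at any time, beside 0% of the 11146 loci in the same limma fit, and 0 of the 40 differences had an unadjusted p under 0.05. They lay between -0.17 and 0.36, with SE of 0.13 to 0.33. Without the knockout samples of replicate 1 or 2, under the other settings or with Tukey's test, 0 members were called either. With 2 samples a group the spread of the Stat6-/- groups was set largely by the other groups. The fit did not pair replicate numbers, so lasting differences between the 2 Stat6-/- replicates entered the SE. Small responses in Stat6-/- may thus have been missed.

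Lpar6 in Stat6-/- had 46.8 and 46.6 FPKM in the 1 h controls and 44.6 and 38.6 FPKM with IL-4. At 3 h it had 57.5 and 51.8 FPKM without and 53.4 and 55.7 FPKM with IL-4, and at 24 h 61.2 and 73.2 FPKM without and 57.8 and 71.1 FPKM with IL-4. All 18 Stat6-/- values, 38.6 to 73.2 FPKM, were above every WT value with IL-4. WT and Stat6-/- responses of Lpar6 differed by -1.49 (SE 0.16), -2.57, -1.67 and -2.25 at 1, 3, 6 and 24 h (adjusted p = 1.5e-08, 2.9e-15, 2.3e-10 and 3.3e-13).

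S1pr1 in Stat6-/- at 6 h had 20.8 and 14.4 FPKM without IL-4 and 19.3 and 12.1 FPKM with IL-4. Replicate 1 was the higher one in both, and the gap between the replicates was larger than that between IL-4 and control. The WT minus Stat6-/- difference in response was -0.57 (SE 0.25, adjusted p = 0.38) at 1 h and -1.60, -2.71 and -1.74 at 3, 6 and 24 h (adjusted p = 7.9e-06, 6.4e-11 and 2.4e-06).

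For Adora2b the Stat6-/- values at 6 h were 2.16 and 3.10 FPKM without IL-4 and 2.19 and 4.84 FPKM with IL-4. At 24 h they were 1.36 and 1.63 FPKM without and 1.96 and 2.25 FPKM with IL-4, so that the samples did not overlap there. With 2 samples a side this arises easily by chance, and no share over all loci is given for Stat6-/-. Stat6-/- samples were also apart for Lpar6 (lower) and P2ry2 (higher) at 1 h, P2ry2 (higher) at 6 h and S1pr1 (lower) at 24 h. The 4 Stat6-/- differences were 0.02, 0.36, 0.26 and 0.31, none with an unadjusted p under 0.05. WT and Stat6-/- responses of Adora2b differed by 1.73 (SE 0.27, adjusted p = 5.5e-06) at 6 h and 1.42 (SE 0.27, adjusted p = 1.4e-04) at 24 h, whereas at 3 h the difference of 0.36 (SE 0.27, adjusted p = 0.53) did not pass the test.

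P2ry13 in Stat6-/- at 24 h had 2.45 and 2.22 FPKM without IL-4 and 2.27 and 2.96 FPKM with IL-4, all above the WT values with IL-4. Its responses differed by -1.31 (SE 0.27, adjusted p = 3.7e-04) at 24 h and by -0.89 (adjusted p = 0.016) at 6 h. P2ry2 passed the p threshold at 6 h alone (-0.67, SE 0.23, adjusted p = 0.037). Entpd1 differed by -0.92 (SE 0.42, adjusted p = 0.10) at 24 h. Counted by time, 1, 2, 3 and 4 of the 10 genes were called as differing in response between genotypes, beside 1.25%, 3.48%, 4.41% and 6.85% of loci.

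**Figure D3:**
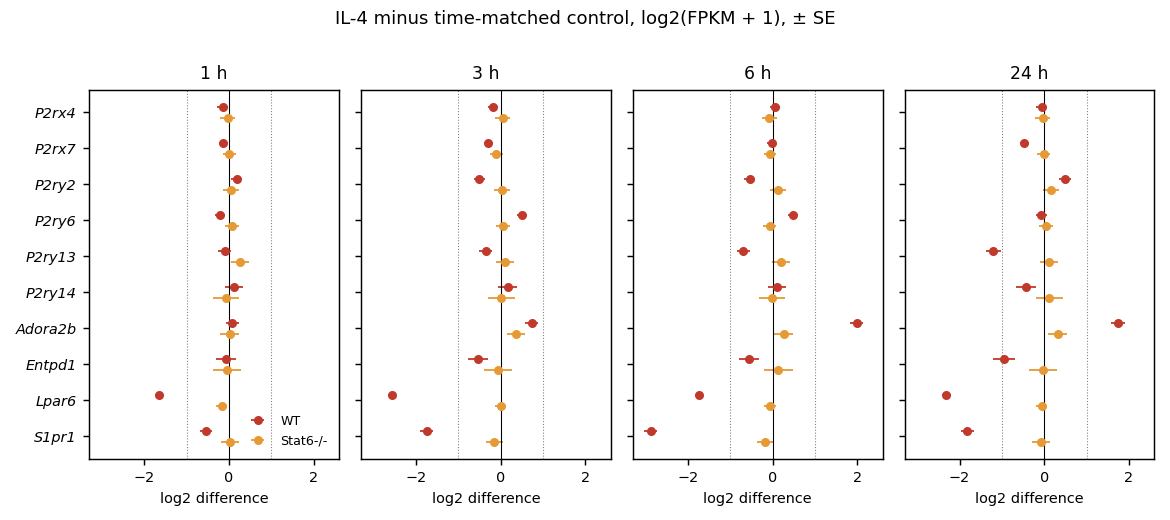
Difference between IL-4 and time-matched control samples on the log2(FPKM + 1) scale for the 10 genes at 1, 3, 6 and 24 h, in WT and Stat6-/-. Points are fitted differences, bars are 1 SE, and dotted lines mark the fold threshold of 1. WT points of Lpar6, S1pr1, Adora2b and P2ry13 pass the dotted lines, and all Stat6-/- points lie between -0.17 and 0.36.

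Over the 4 WT times, 4 members (S1pr1, Adora2b, P2ry13 and P2ry2) were called as responding differently by time, beside 12.5% of loci. S1pr1 and P2ry2 had responses at 24 h that were higher than at 6 h, whereas the responses of Lpar6 and P2ry13 were most negative at 3 h and at 24 h, respectively.

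The genotypes were also compared without IL-4, averaged over the 5 control times. In this comparison the limma fit called 0 of the 10 genes, beside 0.287% of loci, and 4 passed the p threshold alone, adjusted or unadjusted, beside 21.4% of loci by adjusted p. P2rx4 was higher in Stat6-/- by 0.29 (SE 0.07, adjusted p = 0.0016), P2ry6 by 0.21 (SE 0.06, adjusted p = 0.015) and P2rx7 by 0.19 (SE 0.06, adjusted p = 0.015), and S1pr1 was lower by 0.28 in size (difference -0.28, SE 0.08, adjusted p = 0.0099). Lpar6 differed by -0.01 (SE 0.05, adjusted p = 0.95). This fit takes the 5 control times of a replicate number as separate samples. With 1 mean per replicate number over these times (4 WT against 2 Stat6-/-, limma), the differences stayed and the adjusted p was 0.32 for P2rx4, 0.38 for P2ry6, 0.31 for P2rx7 and 0.37 for S1pr1. Without Stat6-/- replicate 2 the differences of P2rx4, P2ry6 and S1pr1 were 0.12, 0.071 and -0.12 (adjusted p = 0.16, 0.33 and 0.17), and without replicate 1 they were 0.45, 0.35 and -0.43. P2rx7 was at 0.14 without replicate 2 and at 0.25 without replicate 1 (adjusted p = 0.0498 and 3.3e-04). Without a WT replicate the adjusted p also passed 0.05 for P2ry6 (0.053 without replicate 2, 0.051 without replicate 3), for S1pr1 (0.063 and 0.078) and for P2rx7 (0.066, 0.074 and 0.052 without replicate 1, 2 or 3).

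Markers of other cell types moved with the genotype in the same control samples. The neutrophil sum was 262 to 526 FPKM in the 10 Stat6-/- controls and 128 to 278 FPKM in the 20 WT controls. The sums of the eosinophil markers were 5.61 to 8.18 (median 7.33) against at most 6.38 FPKM (median 2.86), of the platelet markers 1.39 to 3.11 against 0.571 to 1.63 FPKM, and of the mast cell and basophil markers 0.838 to 1.99 against 0.244 to 0.841 FPKM. In these lists Prg2 (1 of 2 genes), Ppbp (1 of 4) and Cpa3 and Mcpt8 (2 of 4) were the genes that reached 1 FPKM in any sample. Medians of the T cell, B cell and dendritic cell sums were also higher in Stat6-/- (8.45, 0.263 and 2.69 against 5.00, 0.0777 and 1.03 FPKM). So were those of the fibroblast and erythroid sums (0.301 and 0.128 against 0.153 and 0.0979 FPKM), and the ranges of all these sums overlapped. The endothelium sum went the other way, with a median of 0.729 FPKM in Stat6-/- and 1.90 FPKM in WT controls and ranges that overlapped. Without Lyz2, the macrophage sum at 0 h was 3756 to 3772 FPKM in Stat6-/- and 2889 to 3440 FPKM in WT. It was higher in Stat6-/- at 3 and 6 h as well, and at 1 and 24 h the genotypes overlapped. The part of all these markers in the genotype differences was not tested.

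The 2 Stat6-/- samples of a group differed for several members in 1 direction throughout. Entpd1 was higher in replicate 1 in 9 of 9 groups, with a median ratio of 1.94. P2ry14, P2rx4, P2ry6 and Adora2b were higher in replicate 2 in 9 of 9 groups, with median ratios of replicate 1 to replicate 2 of 0.563, 0.735, 0.881 and 0.661. Of all loci tested, 18.7% were higher in replicate 1 in all 9 groups and 15.6% in replicate 2. Lpar6, in contrast, had a median ratio of 0.982 and was higher in replicate 1 in 4 groups. The genotype difference of Entpd1 was 0.35 without replicate 2 and -0.51 without replicate 1, and that of P2ry14 was -0.29 and 0.42, so their direction turned with the Stat6-/- sample left out.

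**Figure D4:**
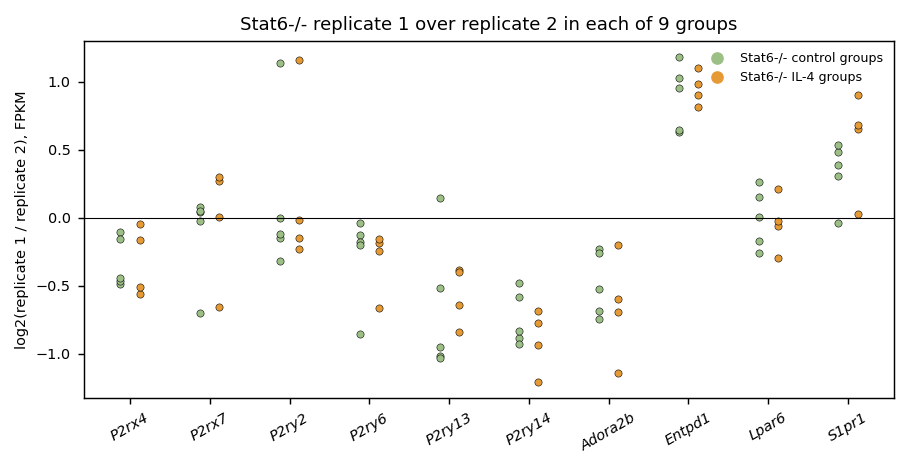
Log2 ratio of the FPKM in Stat6-/- replicate 1 to that in replicate 2, for the 10 genes in each of 9 groups (5 control, 4 IL-4). Each point is a group, and the line at 0 marks equal values. All points of Entpd1 lie above 0 and all points of P2ry14, P2rx4, P2ry6 and Adora2b lie below it.

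A wider list of 82 genes for nucleotide, adenosine, lysophosphatidic acid and sphingosine 1-phosphate signalling, receptors and enzymes together, was read beside the members. This list, too, was chosen with earlier results of these data known. Of the 82 genes, 54 were tested, 44 of them outside the 10 members, and 28 stayed under 1 FPKM in every sample. Among the 44, called genes numbered 1 higher and 1 lower at 1 h, 3 and 1 at 3 h, 3 and 2 at 6 h, and 2 and 5 at 24 h in WT, and 0 in Stat6-/-. In either direction these were 2, 4, 5 and 7 of 44 genes, or 4.55%, 9.09%, 11.4% and 15.9%, beside 1.49%, 3.88%, 5.54% and 8.5% of all loci tested in WT and 0% in Stat6-/-.

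P2ry1, a Gq-coupled receptor for ADP, was the non-member called higher at all 4 times, by 2.73, 1.75, 1.39 and 2.07 (SE 0.18 to 0.19, adjusted p = 1.6e-15, 1.3e-10, 2.5e-08 and 1.3e-11). Its WT values at 1 h were 22.7, 22.9, 23.6 and 23.3 FPKM with IL-4 and 2.54, 2.38, 2.97 and 2.63 FPKM without. The ADP receptors thus moved apart, since P2ry12 differed by -1.34 (SE 0.17, adjusted p = 4.0e-08) and P2ry13 by -1.20 at 24 h. P2ry12 had 0.500, 0.556 and 0.435 FPKM with IL-4 and 2.86, 3.20, 2.55 and 2.55 FPKM in the 24 h controls. The P2ry12 locus overlaps 19 exons of Med12l (transcript Med12l-204), and the libraries kept no strand. Med12l reached at most 0.306 FPKM. The part of its fragments in the low P2ry12 values was not tested.

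Among lipid receptors, Ptafr, the receptor for platelet-activating factor, differed by -1.87, -1.79 and -1.25 at 1, 3 and 6 h (adjusted p = 4.0e-19, 5.1e-19 and 1.9e-14). At 24 h, Lpar5, another receptor for lysophosphatidic acid, differed by -1.25, Gpr34, a receptor for lysophosphatidylserine, by -2.33, and Gpr132, a receptor for lysophospholipids and oxidized fatty acids, by -1.46 (adjusted p = 2.2e-07, 2.1e-07 and 2.5e-12). Together with Lpar6, 2 of the 3 tested lysophosphatidic acid receptors were called lower at 24 h, beside 4.58% of loci. No receptor on the list other than P2ry1 and Adora2b was called higher.

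Of the enzymes, channels and transporters, Lpcat2, which makes platelet-activating factor, differed by -1.81 at 24 h (adjusted p = 7.0e-13), and Sphk1, a sphingosine kinase, by 1.13 (adjusted p = 7.1e-15). Gja1, the gap junction and hemichannel protein connexin 43, differed by 1.73 and 2.26 at 3 and 6 h (adjusted p = 6.5e-12 and 2.4e-15). The nucleoside transporter genes were called in both directions, with Slc29a2 at 1.22 and 1.07 at 3 and 6 h (adjusted p = 6.5e-17 and 3.0e-15) and Slc28a2 at -1.52 at 6 h (adjusted p = 0.014). The genotype difference in response at 24 h was called for 2 non-members in the higher and 6 in the lower direction, beside 6.85% of loci in either direction, the latter including Adora3, an adenosine receptor (-1.02, SE 0.18, adjusted p = 5.1e-05).

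**Figure D5:**
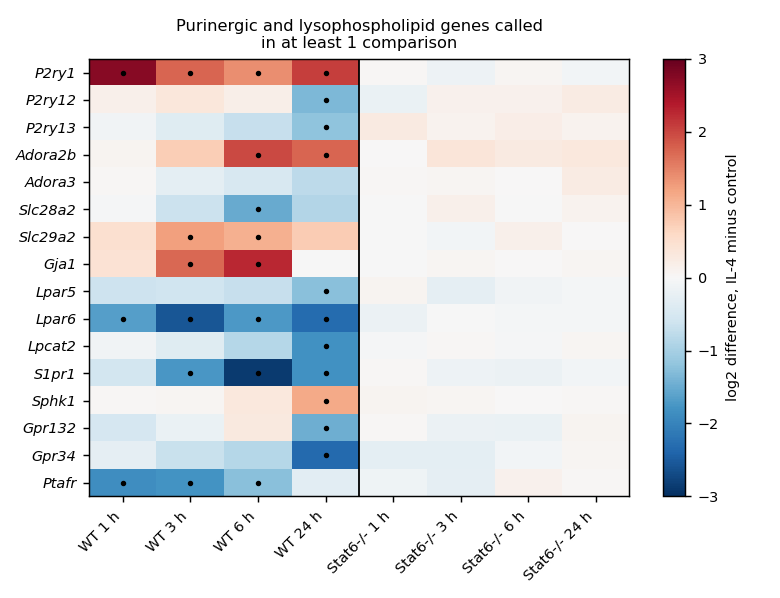
Difference between IL-4 and control samples (colour, log2(FPKM + 1) scale) for the 16 genes of the wider list called in at least 1 comparison, members included, in WT and Stat6-/- at 1, 3, 6 and 24 h. Dots mark called differences in these 8 comparisons. P2ry1 is higher and Lpar6 lower at all 4 WT times, the 24 h column of WT holds 8 called decreases, and no Stat6-/- cell has a dot.

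Genes with the most similar pattern were sought over the 18 group means (Pearson's r of log2(FPKM + 1), as a description, since all genes share these samples). They were Stk17b (r = 0.973), Phf15 (0.963) and F630028O10Rik (0.959) for Lpar6, and Mbp (0.977), Znrf1 (0.962) and Fam102b (0.951) for S1pr1. For Adora2b they were Cldn25 (0.962), Mfn2 (0.936) and Dnaja3 (0.932), and for P2ry13 Fam26f (0.969), Drosha (0.965) and Padi4 (0.961).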

How the data were processed

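The authors aligned the reads of poly-A libraries without strand to mm10 with TopHat2 and computed FPKM with Cufflinks at default parameters (versions 2.0.7 and 2.0.2 in the submitters' processing notes), and deposited 1 FPKM table per sample. The gene annotation was not given in the sources used here. FPKM is scaled within a sample, so shifts in abundant genes move all others. Tables were joined by locus, values under 1e-06 FPKM were set to 0, and 740 loci sharing a symbol were kept apart.

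Loci with 1 FPKM or more in at least 1 sample were fitted as log2(FPKM + 1) in limma 3.58.1 (R 4.3.3, lmFit, contrasts.fit, eBayes with trend, two-sided, 18 groups, 35 residual degrees of freedom). This was checked on simulated data for contrasts at 6 h, with noise drawn separately for each sample. The simulation held no variation shared by a replicate number, so it does not bear on the SE where such variation is present. It did not cover the comparison of control genotypes. The study used analysis of variance with Tukey's test, which was run as an alternative, as were other filters, pseudocounts, scalings, sample sets and a replicate block. The 10 members and all lists were chosen with earlier results of these data known. Named genes were the members, the called genes of the wider list, overlapping genes, Stat6, Arg1, Retnla and the 3 most similar loci of each called member.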

Additional observations from a re-analysis of the deposited data

Results flagged for a closer look

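WT and Stat6-/- responses to IL-4 differed by the interaction test for Lpar6 at 1, 3, 6 and 24 h (-1.49, -2.57, -1.67 and -2.25 on the log2(FPKM + 1) scale), for S1pr1 at 3, 6 and 24 h (-1.60, -2.71 and -1.74), for Adora2b at 6 and 24 h (1.73 and 1.42) and for P2ry13 at 24 h (-1.31).

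In 3 of 80 sets of 4 WT samples (10 genes in 8 groups), 1 sample lay far from the other 3. The gap to its nearest neighbour was 0.85 of the group's range for P2ry2 in the 6 h controls (5.16 against 4.20 to 4.35 FPKM), 0.949 for P2rx7 with 1 h of IL-4 (19.8 against 18.4 to 18.5 FPKM) and 0.844 for Entpd1 in the 1 h controls (27.7 against 30.6 to 31.1 FPKM). Chance alone gives about 1 such group in 20.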

How the results depend on the processing

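Of 188 counts of called members under alternative settings, 185 stayed within 1.5 times the reported count. The exception was the count of members changing over the WT control times, 1 as reported and 0 to 1 when a WT replicate was left out. Without WT replicate 4 the 1 gene called was Lpar6 (1.03), not Entpd1. Of 1360 values of single members, 1330 kept their direction and their side of the threshold for a call. Crossings of the p threshold alone, by differences under 1 in size, are not in this count. Values that passed a threshold anew were P2ry13 at 6 h (-1.17, and -1.43 for the genotype difference, pseudocount 0.1), Entpd1 in the genotype difference at 24 h (-1.0 without Stat6-/- replicate 2) and the range of Lpar6 over times (1.0, quantile normalization). The ranges of P2ry2 (0.98 without WT replicate 2) and P2ry13 (0.97, quantile normalization) fell under it.

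Signs turned in 19 values. With quantile normalization these were P2rx4 in WT at 6 h (-0.0065), Entpd1 in the genotype difference at 1 h (0.0051) and P2ry2 between control genotypes (0.00032). With 1 replicate left out, the WT difference of P2rx7 at 6 h ranged from -0.044 to 0.0053, the genotype differences in response ranged from -0.083 to 0.030 for Entpd1 at 1 h, -0.033 to 0.32 for P2ry14 at 3 h, -0.080 to 0.16 for P2rx7 at 6 h and -0.092 to 0.023 for P2rx4 at 24 h, and the control genotype differences ranged from -0.032 to 0.019 for Lpar6, -0.077 to 0.0037 for P2ry2, -0.11 to 0.39 for P2ry13, -0.29 to 0.42 for P2ry14, -0.094 to 0.25 for Adora2b and -0.51 to 0.35 for Entpd1. The cause was not tested.

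No label ties a replicate number to 1 animal, and a number was to count as a pair only if every one of at least 3 pairs had an r over 0.1. In WT 13 of 15 IL-4 and control pairs did (mean r 0.223, against -0.0743 for other numbers), the lowest r was 0.027, and 12 of the 15 IL-4 samples correlated best with the control of their own number. In Stat6-/- the r was 0.79 to 0.90 in 8 of 8, with 2 pairs a comparison. Since values were taken about the mean of each group of 2, both pairs of a comparison hold the same r by construction. They are not separate results. The replicate numbers thus carry shared variation but missed the rule for pairs, and the block remained an alternative. It moved no count of called members by more than 1.5 times and raised no adjusted p over 0.05. It brought the adjusted p under 0.05, with differences under 1 in size, for P2ry13 at 3 h (0.0030), Entpd1 at 3 and 6 h (7.3e-08 and 1.3e-08) and P2ry14 at 24 h (5.2e-04) in WT, and likewise for genotype differences in response of S1pr1 at 1 h, P2ry6, P2ry13 and Entpd1 at 3 h, P2ry6 and Entpd1 at 6 h and P2ry14, P2rx7 and Entpd1 at 24 h, and for the responses over times of P2ry14, P2rx7 and Entpd1 and the control times of P2ry13 and P2ry14. For the control genotypes, in which the numbers are nested, the means per replicate number, added after seeing the data, took the block's place and left 0 members called in limma, as reported, and 1 locus of all tested, against 32. The absolute depth is unknown, so low genes such as P2ry13 and Adora2b carry counting error that cannot be stated.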
